A study of Mus musculus with 16 samples.

Results

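Iron and heme handling genes were described as 10 named members, namely Hmox1, Blvrb, Slc48a1, Cd163, Tfrc, Slc11a1, Fth1, Ftl1, Slc40a1 and Spic. The members were taken by symbol, but the list was chosen with earlier results of these data known. They are 10 of the 55423 rows of the count table, and all 10 were among the 21085 genes that had at least 10 counts in total and a count in at least 2 of the 16 sequenced samples. RNA was sequenced from subcapsular sinus macrophages (SSMs) and medullary sinus macrophages (MSMs) sorted from tumor-draining lymph nodes (tdLN) and non-draining lymph nodes (ndLN). All nodes came from male C57B/6 mice that had carried MOC2, a chemically induced squamous cell carcinoma line, in the skin of the flank for 2 weeks, so the ndLN are nodes of tumor-bearing mice and no tumor-free group was analysed here. For a pool, nodes of 2 mice were combined, with 2 tdLN beside 6 ndLN taken from the far groin and from the axillary and brachial sites, and the CD11c-negative fraction (SSMs) and the CD11c-positive fraction (MSMs) were taken from both. Each of the 4 groups (ndLN SSMs, tdLN SSMs, ndLN MSMs, tdLN MSMs) had 2 libraries, from pools 1 and 2, and each library was sequenced on lanes 3 and 4. The label of 1 tdLN SSM library gives no pool number, and it was counted as pool 1 because pool 2 was taken.

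Macrophages take up heme from senescent or damaged red cells and from free hemoglobin, break it down and either store the released iron in ferritin or return it to the plasma. CD163 binds haptoglobin-hemoglobin complexes, HRG1 (encoded by Slc48a1) carries heme out of the phagolysosome, heme oxygenase 1 (Hmox1) opens the heme ring, and biliverdin reductase B (Blvrb) acts on a breakdown product. The transferrin receptor (Tfrc) brings transferrin-bound iron into the cell, and NRAMP1 (Slc11a1) moves iron from phagosomes into the cytosol. Ferritin heavy and light chains (Fth1, Ftl1) store iron, and ferroportin (Slc40a1) exports it. SPI-C (Spic) is the heme-induced transcription factor of splenic red pulp macrophages, which are specialised in the recycling of iron from heme.

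The ferritin chains, ferroportin and the transferrin receptor each carry an iron-responsive element (IRE), the RNA hairpin to which iron regulatory proteins bind when cellular iron is low. Bound to a 5′ UTR the proteins block translation, and bound to the 3′ UTR of Tfrc they protect the mRNA, so the counts reported here are mRNA levels and carry no measure of ferritin or ferroportin protein. The hairpins are shown because they set the storage and export genes apart from the uptake gene by position. Each was found in the annotated transcripts (GENCODE M21, build GRCm38) as an unpaired C, 5 paired bases, a loop of CAGTGN whose last base is not G, and 5 bases that pair with the first 5. Capitals mark the unpaired C and the loop.
Fth1, 5′ UTR, chr19:9982731-9982760, plus strand: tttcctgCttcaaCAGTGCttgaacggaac
Ftl1, 5′ UTR, chr7:45459779-45459808, minus strand: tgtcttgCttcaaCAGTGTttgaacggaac
Slc40a1, 5′ UTR, chr1:45925465-45925494, minus strand: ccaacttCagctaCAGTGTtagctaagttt
Tfrc 1, 3′ UTR, chr16:32631218-32631247, plus strand: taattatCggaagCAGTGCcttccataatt
Tfrc 2, 3′ UTR, chr16:32631597-32631626, plus strand: acattatCgggagCAGTGTcttccataatg
Tfrc 3, 3′ UTR, chr16:32631662-32631691, plus strand: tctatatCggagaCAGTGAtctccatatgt
Tfrc 4, 3′ UTR, chr16:32631709-32631738, plus strand: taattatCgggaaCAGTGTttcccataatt
By this search 23 of 21866 protein-coding genes (0.105%) had such a hairpin in a 5′ UTR and 99 (0.453%) had one in a 3′ UTR. Fth1, Ftl1 and Slc40a1 held 1 each, upstream of the coding sequence, and Tfrc held 4, all downstream of it.

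The RefSeq promoter table (GRCm38.p6) held 7 of the 10 members, without Hmox1, Slc40a1 and Slc48a1. The 250 bases before the first listed start of Slc11a1, Spic and Ftl1 are shown because Spic and Ftl1 rose in tdLN and Slc11a1 differed between the subsets there, as given further on. Both strands were searched for an E-box (CACGTG), the core of the antioxidant response element (TGACNNNGC), a PU box (GAGGAA) and a TATA box (TATAAA). Capitals mark the PU box of Slc11a1.
Slc11a1, chr1:74374953-74375202, plus strand: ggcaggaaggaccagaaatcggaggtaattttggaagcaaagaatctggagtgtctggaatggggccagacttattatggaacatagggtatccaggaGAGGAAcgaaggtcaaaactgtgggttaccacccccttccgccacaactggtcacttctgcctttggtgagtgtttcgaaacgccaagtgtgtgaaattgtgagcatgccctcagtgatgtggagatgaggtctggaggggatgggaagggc
Spic, chr10:88683024-88683273, minus strand: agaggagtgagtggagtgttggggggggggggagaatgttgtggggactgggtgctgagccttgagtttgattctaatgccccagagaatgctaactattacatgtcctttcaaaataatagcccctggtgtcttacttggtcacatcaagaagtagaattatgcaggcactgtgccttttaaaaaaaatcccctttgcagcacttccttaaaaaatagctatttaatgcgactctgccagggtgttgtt
Ftl1, chr7:45459887-45460136, minus strand: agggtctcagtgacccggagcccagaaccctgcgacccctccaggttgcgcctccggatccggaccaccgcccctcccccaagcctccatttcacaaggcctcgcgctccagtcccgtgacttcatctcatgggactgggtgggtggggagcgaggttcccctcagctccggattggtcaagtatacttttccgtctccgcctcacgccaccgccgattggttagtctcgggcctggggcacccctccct
The PU box of Slc11a1 lies 152 bases before the start. The same letters occur in 23.1% of 27025 promoters of this length, an antioxidant response core in 10.1%, a TATA box in 13.0% and an E-box in 6.05%. The windows of Spic and Ftl1 held none of the 4 motifs. Fth1, which also differed between the subsets in tdLN, has 2 listed starts and is not shown. Its first window held a TATA box 124 bases before the start, and its second held none of the 4 motifs.

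The 8 libraries held 42972328 to 48130352 counts. The lanes of each library agreed within sampling noise (chi-square per degree of freedom 0.955 to 1.02) and were added up, which leaves n = 2 per group, whereas the pools of a group differed clearly (29.3 to 53.1). Gene positions are those of GENCODE M21 on GRCm38. Levels are CPM (counts scaled to the library total and corrected by TMM), or RPKM (the same per kilobase of exon) where genes are compared with each other, and 3 counts correspond to 0.0623 to 0.0698 CPM. A gene was called at an edgeR adjusted p under 0.01 with a mean normalized count over 100 per lane, and means are given ± SD and log2 fold changes ± SE. The 4 markers of the sorted cells differed between the fractions. Itgax (CD11c), by which the fractions were separated, was lower in SSMs, at 63.6 to 149 CPM against 316 to 418 CPM in MSMs. Ptprc (CD45) was at 1603 to 2590 CPM in SSMs and at 1149 to 1368 CPM in MSMs. Siglec1, which encodes CD169, a marker of both kinds of sinus macrophage, was at 8.47 to 70.0 CPM in SSMs and at 0.795 to 5.96 CPM in MSMs, Itgam (CD11b) was at 54.5 to 124 CPM and at 9.64 to 20.4 CPM, and Xcr1, a marker of cross-presenting dendritic cells, was at 14.2 to 33.6 CPM in SSMs and at 630.4 to 752 CPM in MSMs. "SSM" and "MSM" therefore stand for the labelled fractions.

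Per kilobase of exon, the ferritin chains were by far the highest members and the exporter and the hemoglobin receptor the lowest. Fth1 averaged 1729.6 ± 807 RPKM and Ftl1 1003 ± 299 RPKM over the 8 libraries. Hmox1 (42.7 ± 43.1 RPKM), Slc11a1 (29.1 ± 13.1 RPKM), Slc48a1 (23.8 ± 2.52 RPKM) and Spic (15.8 ± 13.5 RPKM) formed a middle range in which neighbours overlapped. Blvrb (5.80 ± 2.48 RPKM) and Tfrc (4.27 ± 1.48 RPKM) lay lower. Slc40a1 (0.232 ± 0.147 RPKM) and Cd163 (0.223 ± 0.132 RPKM) lay near the bottom, and with mean normalized counts of 47.2 and 27.5 neither could be called in any comparison.

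**Figure D1:**
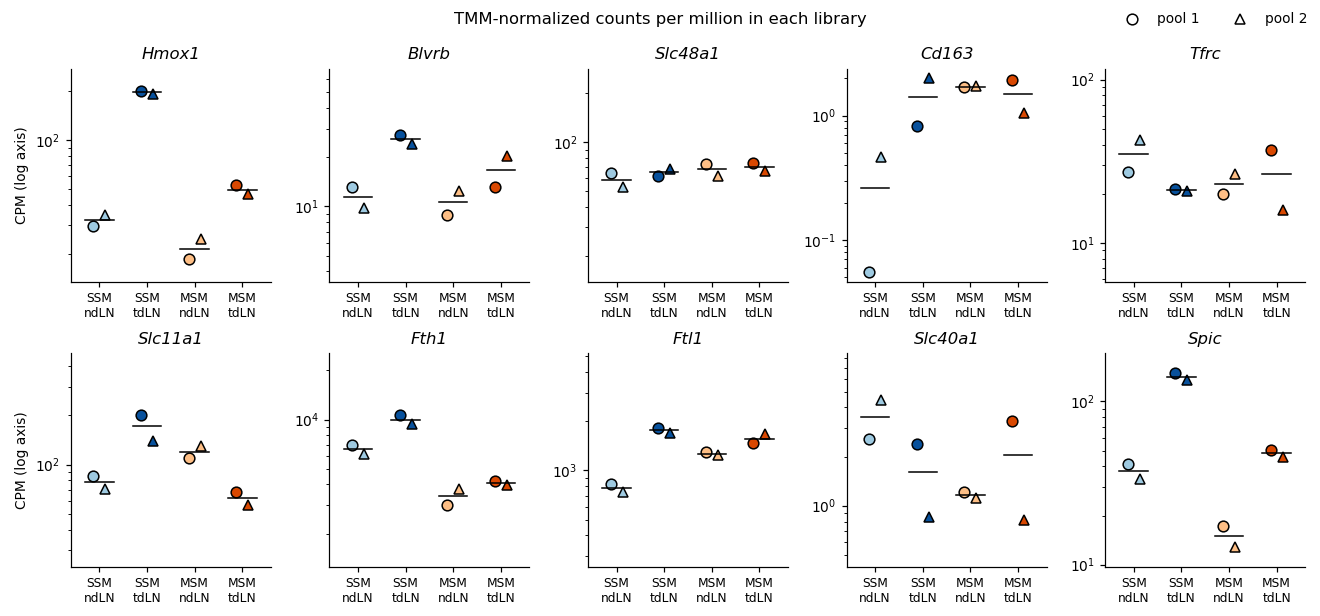
TMM-normalized CPM of the 10 genes on log axes in the 4 groups, with pool 1 as circles, pool 2 as triangles and the group mean as a line (n = 2). Hmox1 reached 199.5 and 192 CPM in tdLN SSMs and at most 52.8 CPM in the other 6 libraries, whereas Slc48a1 lay between 53.1 and 74.1 CPM in all 8.

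Hmox1 (ENSMUSG00000005413, chr8:75093621-75100589, plus strand), the rate-limiting enzyme of heme breakdown, had the largest rise in SSMs of tdLN among the 8 members with a mean normalized count over 100. Its level was 29.6 and 34.8 CPM in ndLN SSMs, 199.5 and 192 CPM in tdLN SSMs, 18.6 and 24.6 CPM in ndLN MSMs, and 52.8 and 46.6 CPM in tdLN MSMs. The libraries of the 4 groups did not overlap, and the order of the levels was tdLN SSMs, tdLN MSMs, ndLN SSMs, ndLN MSMs. In SSMs Hmox1 rose 6.10-fold in tdLN (log2 fold change 2.61 ± 0.19, edgeR adjusted p = 0.00110). In MSMs the log2 fold change was 1.20 ± 0.19 with a 95% interval of 0.76 to 1.65, which did not pass after adjustment (edgeR adjusted p = 0.0567).

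Between subsets, Hmox1 was 3.94-fold higher in SSMs than in MSMs of tdLN (log2 fold change 1.98 ± 0.18, edgeR adjusted p = 0.000391). In ndLN the difference did not pass, at 0.57 ± 0.19 (95% interval 0.13 to 1.02, edgeR adjusted p = 0.0690). The difference between the subsets in their tdLN response was 1.40 ± 0.26 on the log2 scale, with a 95% interval of 0.80 to 2.01, and did not pass either (edgeR adjusted p = 0.0623). A larger response of Hmox1 in SSMs than in MSMs was therefore not shown by this test.

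Blvrb (ENSMUSG00000040466, chr7:27447978-27466144, plus strand), a reductase that acts on a product of heme breakdown, was highest in tdLN SSMs but passed in no comparison. Its level was 13.1 and 9.84 CPM in ndLN SSMs, 27.4 and 24.2 CPM in tdLN SSMs, 8.82 and 12.5 CPM in ndLN MSMs, and 13.1 and 20.3 CPM in tdLN MSMs. Both SSM libraries from tdLN lay above every other library, but the log2 fold change in SSMs, 1.16 ± 0.29 (95% interval 0.49 to 1.83), did not pass (edgeR adjusted p = 0.0463).

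Slc48a1 (ENSMUSG00000081534, chr15:97778520-97792692, plus strand), the heme transporter of the phagolysosome, was the most even of the members. It was at 64.6 and 53.1 CPM in ndLN SSMs, 61.8 and 68.5 CPM in tdLN SSMs, 73.9 and 62.0 CPM in ndLN MSMs, and 74.1 and 66.5 CPM in tdLN MSMs. Libraries overlapped in each of the 4 comparisons of subsets or nodes, and the log2 differences had 95% intervals of -0.23 to 0.54 for tdLN against ndLN in SSMs and -0.33 to 0.43 in MSMs. Differences within these intervals are not excluded, and the intervals are not limits of what could be called with 2 libraries per group.

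Cd163 (ENSMUSG00000008845, chr6:124304656-124330527, plus strand), the hemoglobin scavenger receptor, was, with Slc40a1, the lowest member, with 3 and 23 counts in ndLN SSMs, 37 and 87 in tdLN SSMs, 66 and 77 in ndLN MSMs, and 79 and 48 in tdLN MSMs. In CPM these are 0.0552 and 0.465, 0.830 and 1.99, 1.69 and 1.72, and 1.91 and 1.06. The lowest values were those of ndLN SSMs, and the 95% interval of SSMs against MSMs in ndLN ran from -4.82 to -0.67 on the log2 scale (edgeR adjusted p = 0.0630). The tdLN response of Cd163 in SSMs was 2.47 ± 0.92 on the log2 scale (95% interval 0.32 to 4.61, edgeR adjusted p = 0.156), with 3.91 in pool 1 and 2.10 in pool 2.

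Slc11a1 (ENSMUSG00000026177, chr1:74375195-74386062, plus strand), which encodes the NRAMP1 metal transporter of phagosomes, was the only member whose tdLN and ndLN libraries separated in opposite directions in the 2 subsets. It was at 84.9 and 70.9 CPM in ndLN SSMs and at 202 and 140.3 CPM in tdLN SSMs. In MSMs it was at 109.5 and 129 CPM in ndLN and at 68.1 and 56.2 CPM in tdLN. From high to low the groups were tdLN SSMs, ndLN MSMs, ndLN SSMs, tdLN MSMs, and no 2 groups overlapped. These values are mRNA levels and carry no measure of iron transport. Whether the mouse strain used makes working NRAMP1 was not tested.

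In tdLN, Slc11a1 was 2.74-fold higher in SSMs than in MSMs (log2 fold change 1.45 ± 0.20, edgeR adjusted p = 0.00220). In ndLN the sign was opposite, with -0.63 ± 0.19 (95% interval -1.09 to -0.18), and did not pass (edgeR adjusted p = 0.0529). The tdLN response was 1.13 ± 0.19 in SSMs (95% interval 0.67 to 1.58, edgeR adjusted p = 0.0136) and -0.96 ± 0.20 in MSMs (95% interval -1.42 to -0.50, edgeR adjusted p = 0.120), neither of which passed. The interaction, the difference between these responses, was 2.09 ± 0.28 (95% interval 1.44 to 2.73) and also missed the threshold (edgeR adjusted p = 0.0228). It was the largest interaction among the 8 members with a mean normalized count over 100.

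Tfrc (ENSMUSG00000022797, chr16:32608920-32632794, plus strand), the receptor for transferrin-bound iron and a marker of cells that need iron, was uneven between pools. It was at 27.2 and 42.6 CPM in ndLN SSMs, 21.5 and 20.8 CPM in tdLN SSMs, 19.9 and 26.3 CPM in ndLN MSMs, and 37.0 and 15.9 CPM in tdLN MSMs. The MSM libraries from tdLN alone spanned most of the range. None of the comparisons passed, and the log2 fold change of tdLN against ndLN had a 95% interval of -1.66 to 0.21 in SSMs and of -0.79 to 1.14 in MSMs.

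Fth1 (ENSMUSG00000024661, chr19:9980598-9985098, plus strand), the ferritin heavy chain with the ferroxidase site, was among the most abundant transcripts of SSMs. It was at 6999.8 and 6133 CPM in ndLN SSMs, 10619.9 and 9332 CPM in tdLN SSMs, 2998 and 3759.8 CPM in ndLN MSMs, and 4208 and 3949 CPM in tdLN MSMs. It took 0.706% to 1.03% of all counts in the SSM libraries, where it ranked between 2 and 5 among all genes, and 0.271% to 0.404% in the MSM libraries, where it ranked between 12 and 21. Every SSM library was above every MSM library.

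Fth1 was 1.94-fold higher in SSMs than in MSMs of ndLN (log2 fold change 0.96 ± 0.14, edgeR adjusted p = 0.00208) and 2.44-fold higher in tdLN (1.29 ± 0.14, edgeR adjusted p = 0.000744). Leaving out 1 library, these differences ran from 0.72 to 1.21 in ndLN and from 1.19 to 1.39 in tdLN. The ndLN call of Fth1 was lost without SSM ndLN pool 1, MSM ndLN pool 1 or either tdLN SSM library, and its tdLN call without any tdLN library. The tdLN response of Fth1 did not pass in either subset, at 0.60 ± 0.14 in SSMs (95% interval 0.29 to 0.92, edgeR adjusted p = 0.0345) and 0.27 ± 0.14 in MSMs (95% interval -0.05 to 0.59).

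Ftl1 (ENSMUSG00000050708, chr7:45457944-45459884, minus strand), the ferritin light chain, which promotes iron core formation, followed another order. It was at 828 and 737 CPM in ndLN SSMs, 1819 and 1702 CPM in tdLN SSMs, 1301 and 1236 CPM in ndLN MSMs, and 1469.7 and 1664 CPM in tdLN MSMs. The ndLN SSMs were the lowest group and tdLN SSMs the highest. Ftl1 rose 2.25-fold in SSMs of tdLN (log2 fold change 1.17 ± 0.12, edgeR adjusted p = 0.00224) and was 1.62-fold lower in SSMs than in MSMs of ndLN (-0.70 ± 0.12, edgeR adjusted p = 0.00415). Leaving out 1 library, this ndLN difference ran from -0.78 to -0.61, and its call was lost without any SSM library or either ndLN MSM library. In tdLN the subsets differed by 0.17 ± 0.12 (95% interval -0.10 to 0.44), and in MSMs the tdLN response was 0.31 ± 0.12 (95% interval 0.04 to 0.58), neither of which passed. The interaction of Ftl1 was 0.86 ± 0.16 (95% interval 0.48 to 1.25, edgeR adjusted p = 0.0681).

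The 2 ferritin chains therefore stood in different proportions in the groups. The ratio of Fth1 to Ftl1 in RPKM was 3.24 ± 0.037 in ndLN SSMs, 2.19 ± 0.097 in tdLN SSMs, 1.03 ± 0.20 in ndLN MSMs and 1.01 ± 0.13 in tdLN MSMs (n = 2 each). The SSM and MSM libraries did not overlap in this ratio, nor did tdLN and ndLN libraries of SSMs, while the MSM groups overlapped. The ratio has no test here, and its level depends on the gene lengths used: with the longest transcript of each gene it ran from 1.08 to 3.97, changed by 1 factor in all libraries. Ftl1 shares 50.9% of its 50-base windows with 15 other annotated genes, against 1.59% for Fth1, and 23.7% of the Ftl1 windows recur on the opposite strand of other genes, so how the authors' counting divided its reads is uncertain. Pseudogenes named after their parent, 3 for Ftl1 and 2 for Fth1, held 4857 and 104 counts. The genes themselves held 479331 counts for Ftl1 and 2203601 for Fth1. Other genes that share windows, among them Gm12164 and Gm15590 with Ftl1 and Gm6977 with Fth1, were not in these sums.

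**Figure D2:**
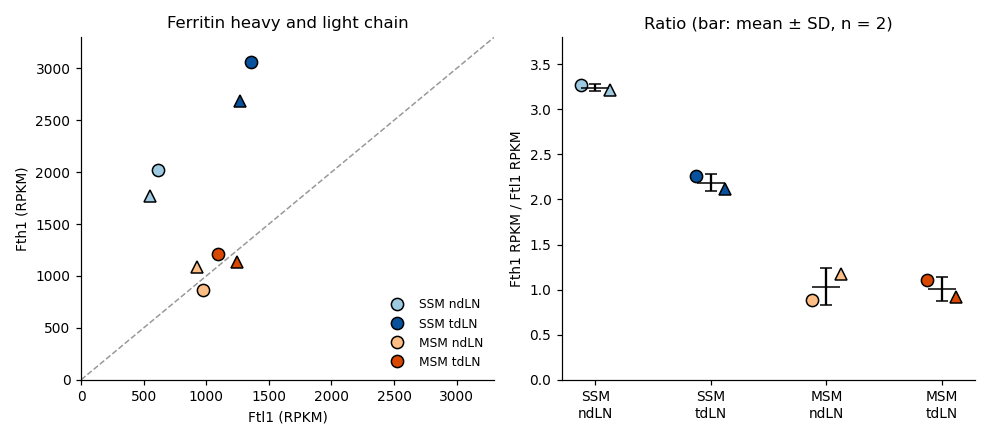
Left, Fth1 against Ftl1 in RPKM for each of the 8 libraries (circles pool 1, triangles pool 2, dashed line equal levels); right, their ratio with mean ± SD (n = 2). MSM libraries lie along the line of equal levels, and the ratio is 3.24 in ndLN SSMs and 2.19 in tdLN SSMs.

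Slc40a1 (ENSMUSG00000025993, chr1:45908068-45926523, minus strand), the only known cellular iron exporter, was at a low level throughout. It was at 2.57 and 4.45 CPM in ndLN SSMs, 2.38 and 0.848 CPM in tdLN SSMs, 1.20 and 1.11 CPM in ndLN MSMs, and 3.30 and 0.814 CPM in tdLN MSMs. The pools of tdLN disagreed in both subsets, and the 95% intervals of tdLN against ndLN were wide, from -2.68 to 0.40 in SSMs and from -1.14 to 2.67 in MSMs on the log2 scale. The direction of its response could not be resolved.

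Spic (ENSMUSG00000004359, chr10:88674772-88685015, minus strand), the transcription factor, rose in SSMs of tdLN and was higher in SSMs than in MSMs of both nodes. It was at 41.3 and 33.3 CPM in ndLN SSMs, 148 and 135 CPM in tdLN SSMs, 17.2 and 12.9 CPM in ndLN MSMs, and 50.6 and 45.7 CPM in tdLN MSMs. No 2 groups overlapped. Spic rose 3.81-fold in SSMs of tdLN (log2 fold change 1.93 ± 0.15, edgeR adjusted p = 0.00138), and it was 2.49-fold higher in SSMs than in MSMs of ndLN (1.32 ± 0.17, edgeR adjusted p = 0.00112) and 2.94-fold higher in tdLN (1.56 ± 0.15, edgeR adjusted p = 0.000524).

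In MSMs the tdLN response of Spic was 1.69 ± 0.17 (95% interval 1.30 to 2.08), which missed the threshold (edgeR adjusted p = 0.0183). The responses of the subsets differed by 0.24 ± 0.22, with a 95% interval of -0.28 to 0.76, so a difference between them was not detected. Of the members with enough counts, Spic had the largest response in MSMs.

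**Figure D3:**
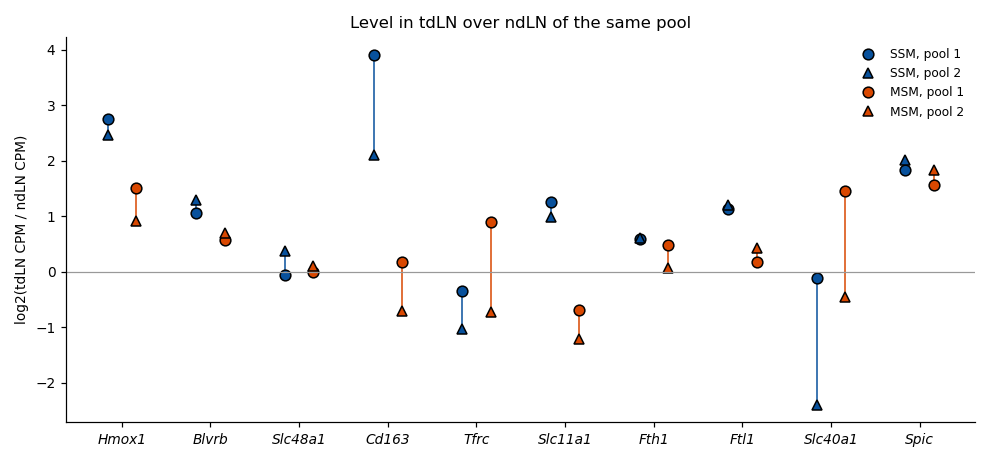
Log2 ratio of tdLN to ndLN CPM within each pool for the 10 genes, with SSMs in blue and MSMs in orange, circles for pool 1 and triangles for pool 2. Spic lies between 1.56 and 2.02 in all 4 pairs, Slc11a1 is at 1.25 and 0.98 in SSMs and at -0.68 and -1.20 in MSMs, and Slc40a1 and Tfrc spread widely between pools.

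The comparisons can be read together as counts, each against its background over all 21085 genes. Only 9996 of these genes had a mean normalized count over 100 and could be called. All members except Slc40a1 and Cd163 were among them. The shares of all genes called are therefore a low background for the members, here and in the sections that follow. SSMs and MSMs of ndLN differed in 3 of the 10 members, of which Fth1 and Spic were higher and Ftl1 lower in SSMs. The share of all genes called was 12.1%, with 6.01% higher and 6.06% lower. The libraries did not overlap for 5 members that were higher and 3 that were lower in SSMs, against 30.7% and 26.6% of all genes, so the separation of libraries by itself said little. The median log2 fold change was 0.34 over the members and 0.09 over all genes.

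In tdLN, 4 of the 10 members differed between the subsets, Hmox1, Slc11a1, Fth1 and Spic, and all were higher in SSMs. The share of all genes called was 8.69%, and 5.16% were called higher. Libraries did not overlap for 6 members, all higher in SSMs, against 29.5% of all genes higher and 27.1% lower. The median log2 fold change was 0.40 over the members and 0.02 over all genes. Over both nodes, Hmox1, Fth1 and Spic were called in SSMs against MSMs, with 16.0% of all genes called, and this average rests on the same libraries as the 2 comparisons above.

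In SSMs, 3 of the 10 members rose in tdLN, Hmox1, Ftl1 and Spic, where 3.04% of all genes were called and 1.99% were called higher. Libraries did not overlap for 7 higher members and 2 lower members (Slc40a1 and Tfrc), against 25.6% and 26.3% of all genes. The median log2 fold change was 1.14 over the members and -0.04 over all genes. Hmox1, Ftl1 and Spic were also the members called for tdLN against ndLN over both subsets, where 1.97% of all genes were called.

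In MSMs, 0 of the 10 members were called for tdLN against ndLN by edgeR's quasi-likelihood test, where 0.0237% of all genes were called. At an unadjusted p under 0.05 there were 4 members (Hmox1, Slc11a1, Ftl1 and Spic) and 2517 of all genes, and DESeq2's Wald test called 3 members (Hmox1, Slc11a1 and Spic), with 2.39% of all genes called. Libraries did not overlap for 5 higher members and 1 lower member, against 20.4% and 18.1% of all genes. The median log2 fold change was 0.29 over the members and 0.01 over all genes. The interaction called 0 members and 0.0379% of all genes, 4 members (Hmox1, Slc11a1, Ftl1 and Cd163) and 2600 of all genes had an unadjusted p under 0.05, and DESeq2 called 3 (Hmox1, Slc11a1 and Ftl1), with 3.35% of all genes called.

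**Figure D4:**
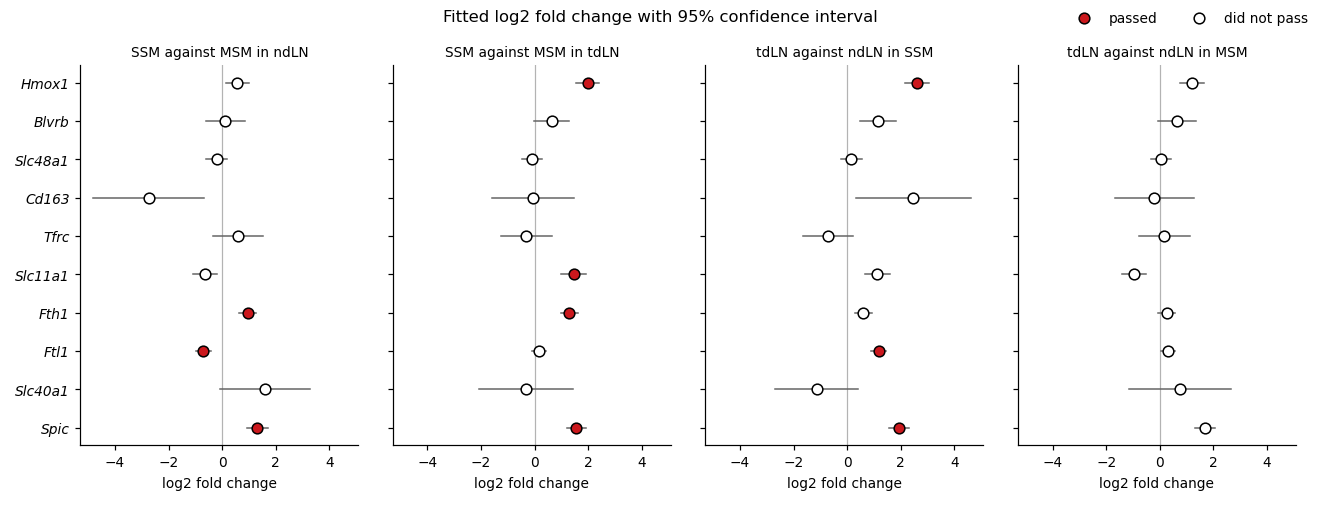
Fitted log2 fold change of the 10 genes with 95% confidence intervals in 4 comparisons, with filled points for genes that passed the adjusted p and mean count thresholds. Hmox1 reaches 2.61 in SSMs of tdLN against ndLN and 1.20 in MSMs, and no point is filled in MSMs.

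Leaving out 1 library at a time moved these counts. In ndLN the subsets then differed in 1 member, in place of 3, without SSM ndLN pool 1, either SSM tdLN library or either MSM ndLN library, and in tdLN in 1 member, in place of 4, without any of the 4 tdLN libraries. In SSMs, 0 members were called for tdLN against ndLN without SSM ndLN pool 2 or either SSM tdLN library, while the log2 fold changes of Hmox1, Ftl1 and Spic kept their signs.

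Markers of other cells moved with the same comparisons. In bulk samples fewer cells of a type and less RNA per cell cannot be told apart. The summed level of 12 macrophage markers was 9973 and 6525 CPM in ndLN SSMs, 25523 and 17476 CPM in tdLN SSMs, and 5119.7 to 5802 CPM in MSMs. That is a tdLN to ndLN ratio of 2.61 in SSMs and 1.01 in MSMs, and 9 of the 12 rose in SSMs of tdLN. Lyz2 led this list with 5043 to 19308 CPM in SSMs and made up most of the sum. The median log2 fold change of the 12, which does not weigh them by level, was 1.86 in SSMs and 0.69 in MSMs. C1qb, named here after its values were seen, was at 41.6 and 26.1 CPM in ndLN SSMs and 471 and 363 CPM in tdLN SSMs.

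The 6 monocyte markers summed to 2458 and 1311 CPM in ndLN SSMs, 4278 and 4408 CPM in tdLN SSMs and 429.7 to 539 CPM in MSMs, and 1 of the 6 rose in SSMs of tdLN. Plac8 led this list with 277 to 1665 CPM in SSMs. Neutrophil markers (8, led by Csf3r) summed to 83.3 to 668 CPM in SSMs and 8.05 to 29.9 CPM in MSMs. The part of the macrophage, monocyte and neutrophil markers in the rises of Hmox1, Spic and Ftl1 was not tested. The tdLN to ndLN ratio in SSMs was 2.30 for the monocyte sum and 2.83 for the neutrophil sum.

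Transcripts of red cells and their precursors were scarce. The 9 erythroid markers with a row summed to at most 7.74 CPM, and Slc4a1 and Epb42 were at 0 in all 8 libraries. The 10 dendritic cell markers, led by Ccr7, summed to 1084 to 2317 CPM in SSMs and 4087 to 4516 CPM in MSMs, and 8 of them were lower in SSMs of tdLN than in MSMs. The 10 T cell markers summed to 1703 and 1938 CPM in ndLN SSMs, 830.0 and 889.9 CPM in tdLN SSMs and 487 to 846 CPM in MSMs (the sort had left out CD3-, B220- and Ly6G-positive cells). Their highest gene, Cd8a, ran opposite to most of the rest, at 10.0 to 25.7 CPM in SSMs and 357 to 605 CPM in MSMs, where it made up most of the sum. In tdLN 8 of the 10 were higher in SSMs than in MSMs and Cd8a was lower, and 3 fell in SSMs of tdLN. The 10 innate-like lymphoid markers, led by Il7r, summed to 1313 and 1676 CPM in ndLN SSMs, 569 and 629 CPM in tdLN SSMs and 33.5 to 74.9 CPM in MSMs, and 4 of them fell in SSMs of tdLN, a ratio of 0.401 for the sum. The 8 NK and cytotoxic markers, led by Gzmb, summed to 1590.3 to 2639 CPM in SSMs and 37.2 to 118 CPM in MSMs. The 10 mast cell and basophil markers summed to 3138 and 2131 CPM in ndLN SSMs, 409.9 and 845 CPM in tdLN SSMs and 312 to 692 CPM in MSMs, a tdLN to ndLN ratio of 0.238 in SSMs, where Cpa3 and Kit fell and Mcpt8 rose. Kit made up most of the sum in MSMs, at 269 to 614 CPM there, while Cpa3 was at 36.1 to 562 CPM in SSMs and at most 0.330 CPM in MSMs. B and plasma cell, endothelial and proliferation markers, led by Xbp1, Pecam1 and Pcna, summed to 642 to 889.6, 51.2 to 81.7 and 249 to 336 CPM in SSMs and to 249.6 to 449.5, 32.6 to 44.8 and 563 to 686 CPM in MSMs. The part of these markers in the differences of Fth1 and Slc11a1 between the subsets, and in the rises of Hmox1, Spic and Ftl1 in tdLN, was not tested.

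Of the 5 red pulp type markers, 3 are members (Spic, Hmox1 and Slc40a1), so the list is not independent of them. The other members of that list are Vcam1, at 19.5 and 28.0 CPM in ndLN SSMs and 105 and 83.6 CPM in tdLN SSMs, and Cd5l, at 0.525 to 6.32 CPM in the 8 libraries. Vcam1 was at 46.1 to 80.1 CPM in MSMs. Spic, Hmox1 and Vcam1 of this list rose in SSMs of tdLN.

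Beyond the members, 68 other genes of heme and iron handling had been listed, of which 62 were tested and 50 had a mean normalized count over 100. A call needs such a count, which 9996 of all 21085 genes reached, so the shares of all genes are a low background. Of those 9996 genes, 2546 were called for subsets in ndLN, 1833 for subsets in tdLN and 640 for tdLN in SSMs. The shares below therefore do not by themselves show an excess of pathway genes. In ndLN, the subsets differed in 7 of the 62, with 4 called up and 3 called down in SSMs, a share of 11.3% beside the 12.1% of all genes. In tdLN, 8 were higher and 1 lower, 14.5% beside 8.69%, and in SSMs 7 were higher and 0 lower in tdLN than in ndLN, 11.3% beside 3.04%. For tdLN against ndLN in MSMs edgeR called 0 of the 62 (0.0237% of all genes), where 10 had an unadjusted p under 0.05 (11.9% of all genes) and DESeq2 called 5 (2.39% of all genes). For the interaction edgeR called 0 (0.0379% of all genes), 16 had an unadjusted p under 0.05 (12.3%) and DESeq2 called 8 (3.35%). The median log2 fold change over the 62 was 0.12, 0.36, 0.36 and 0.07 in these 4 comparisons, beside 0.09, 0.02, -0.04 and 0.01 over all genes.

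Among genes of heme uptake and transport, Hp and Lrp1 were higher in SSMs. Hp, which encodes haptoglobin, was at 101 and 67.0 CPM in ndLN SSMs, 249.5 and 191 CPM in tdLN SSMs and 3.04 to 12.3 CPM in MSMs. The log2 fold change of Hp between the subsets was 3.33 ± 0.49 in ndLN (edgeR adjusted p = 0.00227) and 5.64 ± 0.53 in tdLN (edgeR adjusted p = 0.000464). Lrp1, the receptor for hemopexin-heme complexes, was at 65.7 and 46.8 CPM in ndLN SSMs, 155 and 126 CPM in tdLN SSMs and 24.6 to 31.0 CPM in MSMs. Lrp1 rose in SSMs of tdLN (1.33 ± 0.18, edgeR adjusted p = 0.00609) and was higher in SSMs than in MSMs of tdLN (2.40 ± 0.19, edgeR adjusted p = 0.000231). Leaving out 1 library, the ndLN difference of Hp ran from 2.46 to 4.77 and was lost without either ndLN SSM library, its tdLN difference was lost without MSM tdLN pool 2, and the rise of Lrp1 was lost without any SSM library or any tdLN MSM library.

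Of the enzymes, Blvra, which reduces biliverdin to bilirubin, was at 38.1 and 38.2 CPM in ndLN SSMs and 87.1 and 81.7 CPM in tdLN SSMs, a log2 rise of 1.15 ± 0.15 (edgeR adjusted p = 0.00518). Alas1, the first enzyme of heme synthesis, was at 41.9 and 49.4 CPM and at 119 and 107 CPM, a log2 rise of 1.30 ± 0.20 (edgeR adjusted p = 0.00847). Both calls were lost whichever of the 8 libraries was left out, with log2 fold changes of 1.10 to 1.19 for Blvra and 1.09 to 1.53 for Alas1, and that of Alas1 also with DESeq2's size factors and with no filter on low counts. In MSMs the tdLN response was 0.05 ± 0.15 for Blvra and -0.04 ± 0.20 for Alas1. Slc25a38, the mitochondrial glycine carrier of heme synthesis, was the gene lower in SSMs in both nodes, at 20.7 to 28.7 CPM against 83.1 to 109.7 CPM in MSMs (-2.18 ± 0.20 in ndLN, edgeR adjusted p = 0.000291, and -1.94 ± 0.20 in tdLN, edgeR adjusted p = 0.000686). It was the 1 of the 13 genes of heme synthesis called between the subsets in each node, and its tdLN call was lost without SSM tdLN pool 1 or MSM tdLN pool 2.

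Among sensors and secreted proteins, Hfe, the hemochromatosis protein that takes part in iron sensing, was, like Ftl1, lowest in ndLN SSMs. It was at 45.3 and 31.3 CPM in ndLN SSMs, 166 and 179.7 CPM in tdLN SSMs, 114 and 103 CPM in ndLN MSMs, and 135 and 183 CPM in tdLN MSMs. Hfe rose in SSMs of tdLN (2.17 ± 0.23, edgeR adjusted p = 0.00259) and was lower in SSMs than in MSMs of ndLN (-1.50 ± 0.23, edgeR adjusted p = 0.00272). The rise of Hfe was lost without SSM ndLN pool 2 or either tdLN SSM library, and its ndLN difference without SSM ndLN pool 2 or either ndLN MSM library. Tmprss6, a protease that restrains hepcidin expression, was at 6.92 to 13.0 CPM in SSMs and at most 0.692 CPM in MSMs (5.30 ± 0.64 in ndLN, edgeR adjusted p = 0.000451, and 5.80 ± 0.81 in tdLN, edgeR adjusted p = 0.00134), with 0 counts in both MSM libraries of pool 2. Leaving out 1 library moved Tmprss6 from 4.32 to 12.1 in ndLN and from 4.89 to 11.4 in tdLN, the highest values being those where the only MSM library left has 0 counts, so its fold is poorly determined. It was no longer called in ndLN without either ndLN SSM library, in tdLN without any SSM library or any tdLN MSM library, and in both nodes with the legacy fit. Lcn2, the siderophore-binding protein of neutrophils and inflamed tissue, was at 46.1 and 6.83 CPM in tdLN SSMs and at most 0.179 CPM in MSMs (8.19 ± 1.77 in tdLN, edgeR adjusted p = 0.00836). The neutrophil markers summed to 83.3 and 272 CPM in ndLN SSMs and 668 and 336 CPM in tdLN SSMs, and their part in Lcn2 was not tested. Lcn2 ran from 5.57 to 12.9 with 1 library left out and was no longer called without SSM tdLN pool 1 or any MSM library, nor with the legacy fit.

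Among regulators, Nr1h3, which encodes the liver X receptor alpha, was at 12.2 and 14.6 CPM in ndLN SSMs, 82.9 and 60.4 CPM in tdLN SSMs, 10.9 and 12.1 CPM in ndLN MSMs, and 27.4 and 20.1 CPM in tdLN MSMs. It rose in SSMs of tdLN (2.40 ± 0.24, edgeR adjusted p = 0.00220), a call lost without any 1 of the 4 SSM libraries. Maff, a small MAF partner of NRF2 and BACH1, was at 133 and 112 CPM in ndLN SSMs and 60.3 and 64.1 CPM in ndLN MSMs (0.97 ± 0.15, edgeR adjusted p = 0.00292), a call lost without SSM ndLN pool 1, either tdLN SSM library or either ndLN MSM library. Of the 12 NRF2 and BACH1 target genes outside iron handling, Gsr, glutathione reductase, was at 199 to 411 CPM in SSMs and 58.0 to 103 CPM in MSMs. Gsr was higher in SSMs in ndLN (1.77 ± 0.13, edgeR adjusted p = 8.27e-05) and tdLN (2.05 ± 0.13, edgeR adjusted p = 8.32e-05) and rose in SSMs of tdLN (0.89 ± 0.12, edgeR adjusted p = 0.00561). The differences of Gsr between the subsets were called without each library in turn, whereas its rise was lost whichever of the 8 was left out (0.85 to 0.91).

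**Figure D5:**
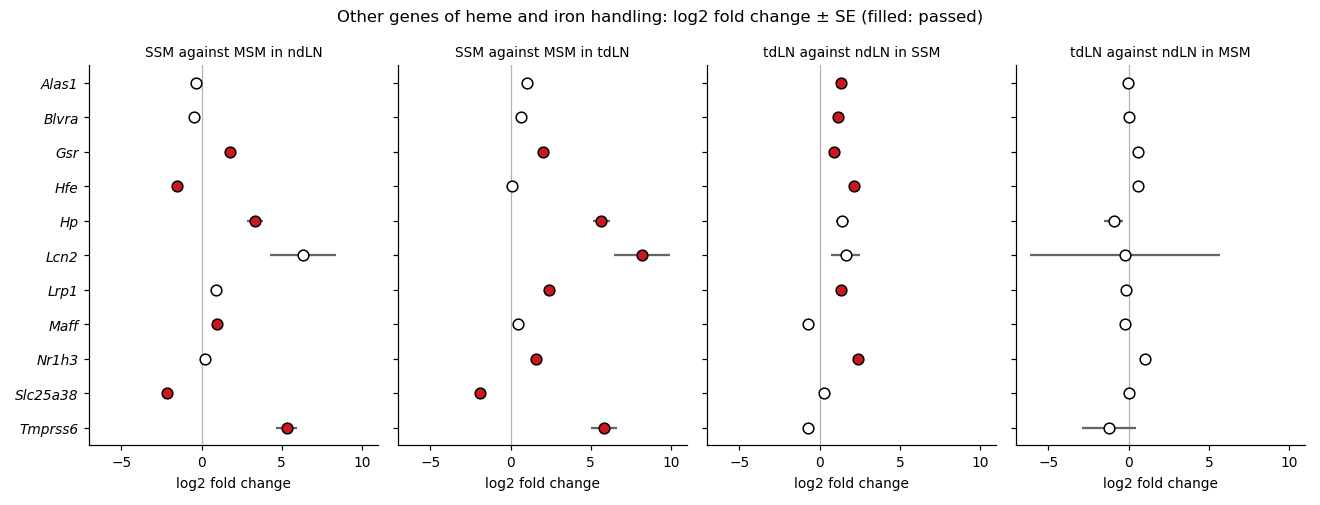
Log2 fold change ± SE of the 11 other genes of heme and iron handling that passed with the largest changes, in 4 comparisons, filled where the gene passed. Hp and Tmprss6 lie between 3.33 and 5.80 in SSMs against MSMs of both nodes, Slc25a38 lies at -2.18 and -1.94, and no point is filled for MSMs of tdLN against ndLN.

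The genes whose pattern was most like that of a called member were sought among 9988 genes by Pearson's r of log2(CPM + 1) over the 8 libraries. The 8 points fall into 4 groups from the same 2 pools, so these r values are descriptions and have no test. Hmox1 was most like Nr1h3 (r = 0.986), Fam213b (0.984) and Lamp1 (0.981). Spic was most like Dnajc4 (0.990), Spon1 (0.989) and Lamp1 (0.988). Fth1 was most like Nrg1, Dok3 and 2310022A10Rik (0.995 to 0.996), Slc11a1 was most like Eepd1 (0.978), Vps33a (0.963) and Arhgap25 (0.957), and Ftl1 was most like its pseudogene Ftl1-ps1 (0.996), with which it shares sequence, and like Slc7a7 (0.992) and Hfe (0.989).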

How the data were processed

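RNA was sequenced from SSMs and MSMs of tdLN and ndLN (SMART-Seq v4), and per the labels each library was run on 2 lanes. The authors demultiplexed reads with bcl2fastq 2.20.0.422, trimmed them with Trimmomatic 0.36, aligned them to mm10 with STAR 2.5.3a, per the submitters' processing notes, and deposited a table of raw read counts per Ensembl gene with 1 column per library and lane. The strand setting of the counting and the annotation release are not given in the sources used here. GENCODE M21 (GRCm38) held 55154 of the 55423 identifiers and gave symbols, positions and lengths, and 2 rows of added sequences with 6 counts were left out.

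Samples were grouped by the labels, and lanes were summed into 8 libraries. Counts were fitted with edgeR 4.0.16 (R 4.3.3) by the quasi-likelihood test with TMM factors (0.902 to 1.15), 4 groups and the pool as a block, and p-values were adjusted by Benjamini-Hochberg over 21085 genes. The pool was a block because the study's methods took all 4 fractions from each pool and had the pool as a term. Same-numbered libraries were taken to come from the same mice on that ground, but the methods describe more pools than the labels show, 1 tdLN SSM library has no number in its label, and the deviations from the group means correlated at -0.186 to 0.150 over 10000 genes, so the data do not show the pairing. The 7 comparisons share libraries. The floor of 3 counts covers counting error only, and p-values rest on the spread between libraries that is left after the group and pool terms. Named beyond the members were the 6 called pathway genes with the largest changes in each of the first 4 comparisons, the highest gene of each marker list and the 3 genes most like each called member. Some other marker genes, among them Siglec1, Itgam, Itgax and Xcr1, were named outside this rule. Members, lists and tests were chosen with earlier results of these data known. On simulated data for tdLN against ndLN in SSMs, with 200 of 21085 genes changed 4-fold, the fit called 161 of the 200 and 9 unchanged genes, and with 0 changed it called 1. Alternatives were DESeq2 1.42.0, other filters, thresholds, scalings and adjustments, single lanes, no block and each library left out. Python 3.11.15 was used for summaries and matplotlib 3.10.9 for plots.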

Additional observations from a re-analysis of the deposited data

Results flagged for a closer look

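The response of Slc11a1 to tdLN went opposite ways in the 2 subsets in both pools, with log2 ratios of tdLN to ndLN of 1.25 and 0.98 in SSMs and of -0.68 and -1.20 in MSMs. The difference between the responses was 2.09 ± 0.28 on the log2 scale and did not pass the threshold (edgeR adjusted p = 0.0228). DESeq2's Wald test, which called 3.35% of all genes for this comparison, called it with 2.06. Only Slc11a1 mRNA was measured, so these responses carry no measure of iron transport.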

How the results depend on the processing

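With no replicate block for the pool, the members called numbered 3, 4, 3, 0 and 0 in the comparisons of subsets in ndLN, subsets in tdLN, tdLN against ndLN in SSMs, the same in MSMs and the interaction, and 3 and 3 over both nodes and over both subsets, as with it, and no member call changed. Of the 16 called member results, 0 changed direction under any alternative run. Holm adjustment called 0 members in every comparison, and fitting only the groups compared called 0 for subsets in ndLN and for tdLN in SSMs. DESeq2's Wald test called 5 members for tdLN in SSMs (9.36% of all genes), 3 in MSMs (2.39%) and 3 for the interaction (3.35%). An adjusted p under 0.05 called 6 for tdLN in SSMs (8.69% of all genes), 1 in MSMs (0.441%), 1 for the interaction (1.02%) and 5 for tdLN over both subsets (6.52%). For tdLN in MSMs, a total of at least 100 counts (0.287% of all genes), the legacy quasi-likelihood fit (0.109%), lane 3 alone (0.114%) and lane 4 alone (0.0806%) each called 1, Spic. Leaving out 1 library, which leaves a group with 1 library assumed to vary like the others, gave 1 to 3 called members for subsets in ndLN, 1 to 4 in tdLN, 0 to 3 for tdLN in SSMs, 0 in MSMs and for the interaction, 3 over both nodes, and 0 to 3 over both subsets, where 0 were called without either tdLN SSM, ndLN MSM or tdLN MSM library. The directions that changed belonged to members that were not called in that comparison. Leaving out 1 library, the log2 fold change between subsets ran from -0.25 to 0.44 for Blvrb in ndLN, and in tdLN from -1.13 to 1.00 for Slc40a1, -0.89 to 0.74 for Cd163 (0.0828 with lane 3 alone), -0.97 to 0.60 for Tfrc and -0.30 to 0.0839 for Slc48a1. The tdLN response ran from -0.0377 to 0.33 for Slc48a1 in SSMs, and in MSMs from -0.51 to 1.52 for Slc40a1, -1.02 to 0.61 for Cd163, -0.70 to 0.86 for Tfrc and -0.0245 to 0.13 for Slc48a1. The interaction ran from -1.55 to 0.0148 for Tfrc and -0.0902 to 0.28 for Slc48a1. Over both nodes Tfrc ran from -0.20 to 0.59, and over both subsets Slc40a1 ran from -0.81 to 0.28, Slc11a1 from -0.0607 to 0.24 and Tfrc from -0.70 to 0.0874. The cause of these changes was not tested. Slc40a1 and Cd163 had too few counts to be called, and 2 libraries per group limit every interval given.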

Other observations

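Nfe2l2, which encodes NRF2, the activator of heme oxygenase and ferritin genes under oxidative stress, was singled out after its values were seen. It was at 481 and 441 CPM in ndLN SSMs, 797 and 679.6 CPM in tdLN SSMs, 852 and 853 CPM in ndLN MSMs, and 537 and 539.9 CPM in tdLN MSMs. Its libraries separated upwards in SSMs and downwards in MSMs, with log2 fold changes of tdLN against ndLN of 0.68 ± 0.11 (edgeR adjusted p = 0.0124) and -0.66 ± 0.11 (edgeR adjusted p = 0.0705), neither of which passed. The difference between these responses was 1.34 ± 0.16 and did not pass (edgeR adjusted p = 0.0186). In ndLN, Nfe2l2 was lower in SSMs than in MSMs (-0.89 ± 0.11, edgeR adjusted p = 0.00124).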
